A study of Mus musculus with 6 samples.

Results

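Interferon-induced genes and the genes of class I antigen presentation were examined in the hippocampus of mice without the aryl hydrocarbon receptor. The series holds 6 whole-transcript arrays, 3 from Ahr-KO mice and 3 from wild-type mice, each of hippocampal total RNA from 1 named mouse. The labels give no age, sex, strain or treatment for either group, and which part of Ahr the knockout allele lacks is not given in the sources used here. Of 39 listed genes, 36 had a probe set that the platform annotation pairs with that symbol alone and were taken as members, out of 22180 genes tested, and the brightest probe set stood for a gene with several. The rule for membership uses no measured value, but the genes were listed with earlier results of these data known. The shares of members set against all genes below carry that limit.

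Interferons are secreted proteins that a cell releases when its sensors detect foreign nucleic acid. Type I interferons signal through JAK kinases to a complex that holds STAT2 and IRF9 and binds the interferon-stimulated response element (ISRE) in promoters of antiviral genes, while type II interferon acts on the gamma-activated site (GAS). Both programmes raise class I antigen presentation, in which the proteasome cuts proteins, the TAP transporter carries the peptides into the endoplasmic reticulum and a heavy chain with beta-2 microglobulin displays them at the surface. In brain tissue, microglia, endothelial cells and astrocytes are known for strong interferon responses, and neurons can carry class I molecules that take part in synapse remodelling.

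RefSeq promoter windows, running from 250 bases before to 50 after a transcription start in GRCm38.p6, were found for 30 of the 36 members, with 37 windows in all. The ISRE core was searched as GAAANNGAAA, or TTTCNNTTTC on the other strand, and the GAS core as TTCNNNGAA, which reads the same on both strands. An ISRE core lay in 37.8% of the members' windows and in 3.3% of the 20611 windows of all genes tested, and a GAS core in 21.6% and 7.89%. Such a match is a description of letters and not evidence of binding. Only exact matches were counted, so an element that departs from these letters was missed. The AHR core, the sequence bound by AHR with its partner ARNT, was searched as GCGTG, or CACGC on the other strand, and lay in 43.2% of the members' windows and in 39% of all. The 6 windows below were chosen after the values were seen. H2-K1 and Psmb10 are the members with the greatest positive and negative difference, Irf1, Ifit3 and Bst2 did not overlap between genotypes, and Isg15 holds 3 overlapping ISRE cores. Capitals mark ISRE, GAS and AHR cores. H2-K1 and Psmb10 hold 1 AHR core each and no exact match to the other motifs. Irf1 holds 1 GAS and 1 AHR core, Ifit3 holds 2 ISRE cores, and Bst2 holds 2 ISRE cores, 1 GAS core and 1 AHR core.

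H2-K1, chr17:34000284-34000583, minus strand: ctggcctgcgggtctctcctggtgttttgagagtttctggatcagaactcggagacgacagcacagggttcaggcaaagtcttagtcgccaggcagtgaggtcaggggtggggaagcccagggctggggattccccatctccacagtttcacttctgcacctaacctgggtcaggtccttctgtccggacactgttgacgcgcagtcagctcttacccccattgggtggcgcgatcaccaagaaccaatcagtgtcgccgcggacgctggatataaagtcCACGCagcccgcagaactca
Psmb10, chr8:105938343-105938642, minus strand: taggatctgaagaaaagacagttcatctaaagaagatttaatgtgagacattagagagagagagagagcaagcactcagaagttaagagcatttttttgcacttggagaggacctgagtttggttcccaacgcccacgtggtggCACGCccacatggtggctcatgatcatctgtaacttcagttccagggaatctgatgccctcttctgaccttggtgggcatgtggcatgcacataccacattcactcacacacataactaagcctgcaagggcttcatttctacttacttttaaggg
Irf1, chr11:53769764-53770063, plus strand: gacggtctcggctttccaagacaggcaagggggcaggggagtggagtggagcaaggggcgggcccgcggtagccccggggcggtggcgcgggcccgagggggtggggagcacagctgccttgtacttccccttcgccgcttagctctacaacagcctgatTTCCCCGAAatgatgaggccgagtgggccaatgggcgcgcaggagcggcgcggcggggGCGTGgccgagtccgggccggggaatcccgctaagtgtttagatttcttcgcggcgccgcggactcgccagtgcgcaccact
Ifit3, chr19:34583279-34583578, plus strand: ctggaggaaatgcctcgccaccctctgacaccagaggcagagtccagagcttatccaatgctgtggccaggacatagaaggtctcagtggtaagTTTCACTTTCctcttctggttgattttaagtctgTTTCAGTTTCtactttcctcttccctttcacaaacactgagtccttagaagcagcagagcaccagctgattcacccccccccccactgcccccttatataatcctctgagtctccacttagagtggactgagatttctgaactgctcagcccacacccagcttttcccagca
Bst2, chr8:71537423-71537722, minus strand: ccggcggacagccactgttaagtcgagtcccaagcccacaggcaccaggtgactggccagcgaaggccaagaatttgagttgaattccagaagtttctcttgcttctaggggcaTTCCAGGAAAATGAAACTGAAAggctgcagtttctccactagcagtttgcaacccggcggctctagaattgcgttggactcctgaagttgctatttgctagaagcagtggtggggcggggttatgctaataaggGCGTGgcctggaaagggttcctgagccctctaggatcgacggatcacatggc
Isg15, chr4:156200769-156201068, minus strand: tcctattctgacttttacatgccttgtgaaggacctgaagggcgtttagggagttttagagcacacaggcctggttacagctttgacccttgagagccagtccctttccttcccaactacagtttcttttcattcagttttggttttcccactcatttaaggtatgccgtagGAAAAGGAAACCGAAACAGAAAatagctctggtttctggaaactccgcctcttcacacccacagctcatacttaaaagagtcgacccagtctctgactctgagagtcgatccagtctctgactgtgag

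No member passed the threshold of adjusted p under 0.05 over all genes (limma, Benjamini-Hochberg), and neither did any of the 22180 genes (0%). At unadjusted p under 0.05, 3 members stood higher in Ahr-KO, namely H2-K1, Irf7 and Oasl2, and 1 stood lower, Psmb10. That is 8.33% of members against 3.53% of all genes for higher values and 2.78% against 2.65% for lower ones. The mean was higher in Ahr-KO for 20 members and lower for 16, or 55.6% higher against 50.7% of all genes. The median difference, Ahr-KO minus wild type, was 0.02 log2 over the members and 0.0019 over all genes. The count of higher members depended on single arrays, being 1 without Ahr-KO array 1, 5 without Ahr-KO array 3 and 6 without wild-type array 3. Over all 22180 genes the higher counts in these fits were 786, 657 and 639, against 784 with all arrays. The count of lower members was 2 without wild-type array 2, where 649 of all genes were lower, against 587 with all arrays.

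**Figure D1:**
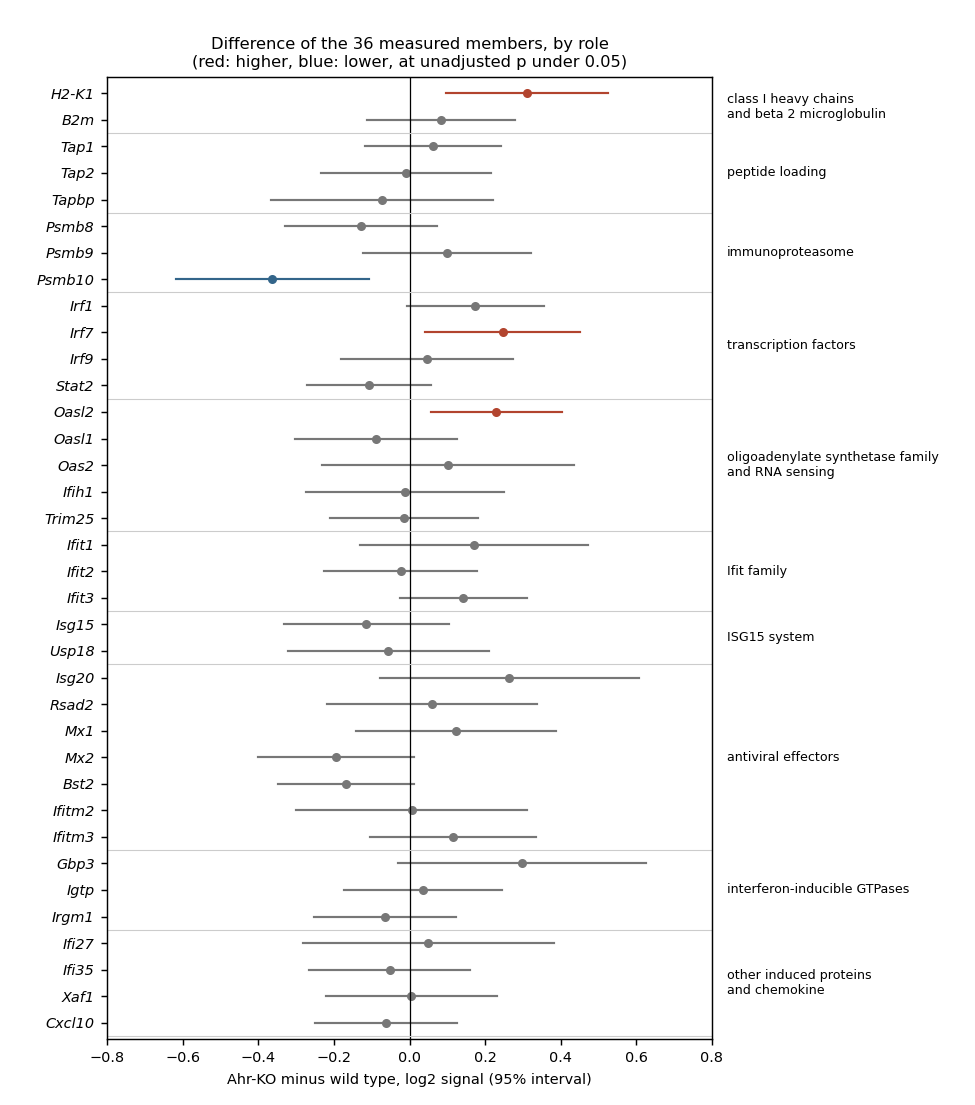
Difference in log2 signal, Ahr-KO minus wild type, for the 36 measured members grouped by role, with points for limma's estimate and lines for its 95% interval (n = 3 arrays per genotype). The intervals of H2-K1, Irf7 and Oasl2 lie above 0 and that of Psmb10 lies below 0, and all others span 0.

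The values of the 3 Ahr-KO arrays did not overlap those of the 3 wild-type arrays in 9 members, which is 25% of members against 11.9% of all genes. Values were all higher in Ahr-KO for H2-K1, Irf1, Irf7, Oasl2 and Ifit3 (13.9% of members, against 6.18% of all genes). They were all lower for Psmb10, Stat2, Mx2 and Bst2 (11.1%, against 5.75%). Members without overlap thus lay on both sides, and Ifit3 and Bst2, both with ISRE cores in the windows shown, stood on opposite sides.

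**Figure D2:**
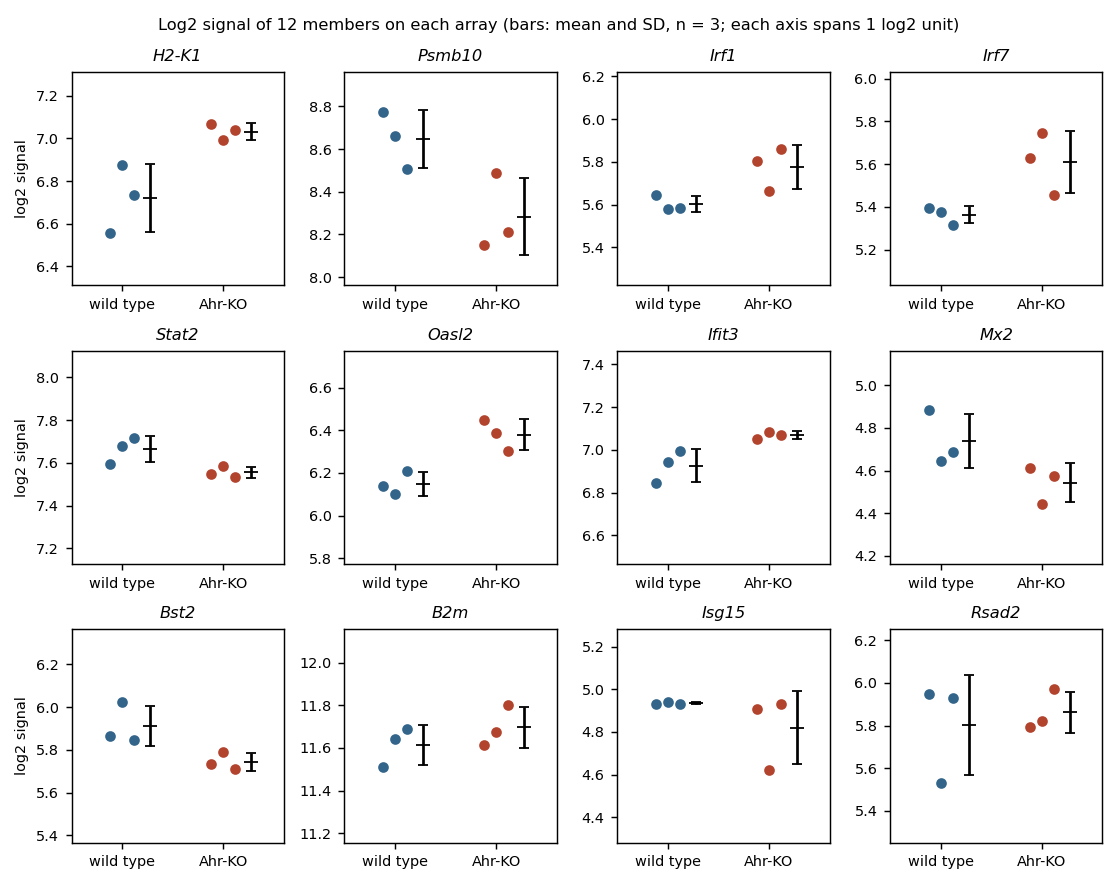
Log2 signal on each of the 6 arrays for the 9 members whose genotypes did not overlap and for B2m, Isg15 and Rsad2, with the mean and SD beside the points (n = 3 each). Each panel spans 1 log2 unit. H2-K1, Irf1, Irf7, Oasl2 and Ifit3 sit higher in Ahr-KO, Psmb10, Stat2, Mx2 and Bst2 sit lower, and the last 3 panels overlap.

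Among the class I molecules, H2-K1, a classical heavy chain, stood highest relative to wild type. It read 7.07, 6.99 and 7.04 log2 on Ahr-KO arrays 1 to 3 and 6.56, 6.87 and 6.73 on wild-type arrays 1 to 3. All Ahr-KO values lay above all wild-type values, and the wild-type arrays were the more spread. The means were 7.03 ± 0.04 and 6.72 ± 0.16 (SD, n = 3 each), a difference of 0.31 ± 0.09 (SE), or 1.24-fold (limma, unadjusted p = 0.00986, adjusted p = 0.770). Its unadjusted p stayed under 0.05 in all 15 alternatives, with adjusted p from 0.566 to 0.972, and its difference ran from 0.23 without wild-type array 1 to 0.39 without wild-type array 2. Class I heavy chains form a multigene family, and whether the H2-K1 probes also read its relatives was not tested, so the value is uncertain in that respect.

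B2m, the light chain shared by all class I molecules, differed by less than its spread. It read 11.61, 11.67 and 11.80 on the Ahr-KO arrays and 11.51, 11.64 and 11.69 on the wild-type arrays, so the genotypes overlapped. The difference was 0.08 (95% interval -0.11 to 0.28). H2-D1, the second classical heavy chain on the list, had only a probe set annotated to both H2-Q2 and H2-D1 and was not tested. That shared probe set read 4.73, 4.67 and 5.05 in Ahr-KO and 4.60, 4.52 and 4.82 in wild type, a difference of 0.17 in means with overlapping values.

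The peptide-loading genes showed no difference beyond their spread. Tap1 and Tap2 encode the subunits of the peptide transporter, and Tapbp encodes tapasin, which holds the empty heavy chain beside it. Tap1 differed by 0.06 (95% interval -0.12 to 0.24), Tap2 by -0.01 (-0.23 to 0.22) and Tapbp by -0.07 (-0.37 to 0.22). Tapbp was lowest on Ahr-KO array 1, at 7.72, and highest on wild-type array 1, at 8.21. Without Ahr-KO array 1 its difference was 0.07. Tap2 also changed sign when single arrays were left out. A second, dimmer probe set of Tapbp differed by 0.03.

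Within the immunoproteasome, the form of the proteasome that interferon induces, the 3 catalytic subunits did not all lie on the same side. Psmb10, the beta-2i subunit, read 8.15, 8.49 and 8.21 in Ahr-KO and 8.77, 8.66 and 8.51 in wild type. Every Ahr-KO value lay below every wild-type value, though Ahr-KO array 2 and wild-type array 3 nearly met. The means were 8.28 ± 0.18 and 8.65 ± 0.13 (SD, n = 3 each), a difference of -0.36 ± 0.11 (SE), or 1.29-fold lower (limma, unadjusted p = 0.0110, adjusted p = 0.770). Its unadjusted p was 0.0783 when Ahr-KO array 1 and wild-type array 2, the arrays high in choroid plexus genes, were left out (difference -0.29) and under 0.05 in the other 14 alternatives, and its adjusted p ran from 0.563 to 0.972.

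Psmb8, the beta-5i subunit, read 5.94, 5.82 and 5.74 in Ahr-KO and 6.03, 6.01 and 5.85 in wild type, a difference of -0.13 (95% interval -0.33 to 0.07), with overlap. Psmb9, the beta-1i subunit, differed by 0.10 (-0.12 to 0.32). Tap1 and Psmb9 are neighbours read in opposite directions, and their RefSeq promoter windows share 275 bases. Both of their differences were positive and within the spread between arrays.

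The constitutive catalytic subunits that the inducible ones replace had lower means in Ahr-KO as well. Psmb5, the counterpart of Psmb8, differed by -0.27 ± 0.11 (SE; unadjusted p = 0.0407, adjusted p = 0.806), Psmb6, the counterpart of Psmb9, by -0.10 ± 0.09, and Psmb7, the counterpart of Psmb10, by -0.09 ± 0.09. The Psmb5 values ran from 8.16 to 8.53 in Ahr-KO and from 8.46 to 8.62 in wild type, with overlap through Ahr-KO array 2. Psmb5 and Psmb10 were thus both highest, among Ahr-KO arrays, on array 2.

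Transcription factors of the interferon response differed in sign. Irf7, which amplifies type I interferon production, read 5.63, 5.75 and 5.46 in Ahr-KO and 5.40, 5.38 and 5.32 in wild type. The groups did not overlap, with Ahr-KO array 3 the nearest to wild type. The means were 5.61 ± 0.15 and 5.36 ± 0.04 (SD, n = 3 each), a difference of 0.25 ± 0.09 (SE), or 1.19-fold (unadjusted p = 0.0242, adjusted p = 0.796). In 10 of 14 alternatives its unadjusted p stayed under 0.05, with adjusted p from 0.630 to 0.972, and the other 4 gave 0.0569 without Ahr-KO array 1, 0.0840 without Ahr-KO array 2 (difference 0.18), 0.0721 without wild-type array 3 and 0.0900 without Ahr-KO array 1 and wild-type array 2. Both Irf7 and Irf1 averaged below the median of the genes tested on these arrays, where a probe set's signal may lie close to background.

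Irf1, an early factor induced through the GAS and active on class I genes, carries a GAS core in the promoter window shown above. It read 5.81, 5.66 and 5.86 in Ahr-KO and 5.64, 5.58 and 5.59 in wild type, a difference of 0.17 (95% interval -0.01 to 0.36), with no overlap. Stat2 and Irf9 encode subunits of the ISRE-binding complex. Stat2 read 7.55, 7.59 and 7.53 in Ahr-KO and 7.60, 7.68 and 7.72 in wild type, all lower in Ahr-KO, with a difference of -0.11 (-0.27 to 0.06). Irf9 read 7.78, 7.70 and 7.51 against 7.59, 7.75 and 7.52, which overlapped (0.05, interval -0.18 to 0.27). Irf1 and Stat2, although without overlap, had intervals that include 0.

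Of the oligoadenylate synthetase family, whose enzymes answer double-stranded RNA, Oasl2 was the member at unadjusted p under 0.05. Oasl2 read 6.45, 6.39 and 6.30 in Ahr-KO and 6.14, 6.10 and 6.21 in wild type, without overlap but on average below the array median. The means were 6.38 ± 0.07 and 6.15 ± 0.06 (SD, n = 3 each), a difference of 0.23 ± 0.08 (SE), or 1.17-fold (unadjusted p = 0.0155, adjusted p = 0.770). Its unadjusted p was under 0.05 in 11 of 14 alternatives and adjusted p ran from 0.591 to 0.972. The exceptions were 0.0540 without Ahr-KO array 1, 0.0516 without wild-type array 2 and 0.131 without both, where its difference was 0.17. Oasl1, which restrains Irf7 translation, differed by -0.09 (95% interval -0.30 to 0.13), and Oas2, a synthetase of the RNase L pathway, by 0.10 (-0.23 to 0.43). The RNA sensor Ifih1 (MDA5) and the ubiquitin ligase Trim25, which acts on the sensor RIG-I, each differed by -0.01 (-0.27 to 0.25 and -0.21 to 0.18).

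The Ifit proteins bind viral RNA and are among the genes most strongly induced by type I interferon. Ifit3 read 7.05, 7.09 and 7.07 in Ahr-KO and 6.84, 6.94 and 6.99 in wild type, without overlap and with the Ahr-KO arrays close together. Its difference was 0.14 (95% interval -0.03 to 0.31). Ifit1 differed by 0.17 (-0.13 to 0.47) and Ifit2 by -0.02 (-0.23 to 0.18), both with overlap. The Ifit3 window shown above holds 2 ISRE cores, and that of Ifit1 also holds 2.

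Isg15, a ubiquitin-like protein, and Usp18, the protease that removes it and dampens receptor signalling, both had lower means in Ahr-KO. Isg15 read 4.91, 4.62 and 4.93 in Ahr-KO and 4.93, 4.94 and 4.93 in wild type. Only Ahr-KO array 2 lay away from the rest, and the difference was -0.11 (95% interval -0.33 to 0.11), or -0.02 without that array. Usp18 differed by -0.06 (-0.32 to 0.21). The gene with the most ISRE cores among the windows shown thus had nearly level values on 5 of the 6 arrays, at a signal below the array median.

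Antiviral effectors went both ways, 5 with a higher and 2 with a lower mean in Ahr-KO, and none of the 7 passed at unadjusted p under 0.05. Bst2 (tetherin), which holds budding virus at the membrane, read 5.73, 5.79 and 5.71 in Ahr-KO and 5.86, 6.02 and 5.85 in wild type, all lower in Ahr-KO (-0.17, 95% interval -0.35 to 0.01). Mx2, a dynamin-like GTPase, read 4.61, 4.44 and 4.58 against 4.88, 4.64 and 4.69, also without overlap (-0.19, -0.40 to 0.01). Its relative Mx1 read 3.47, 3.69 and 3.90 against 3.49, 3.68 and 3.53, with overlap (0.12, -0.14 to 0.39). Both Mx genes were among the dim members, below the array median.

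Isg20, an exonuclease, had the greatest positive difference of the effectors, with values of 6.78, 6.78 and 6.46 in Ahr-KO and 6.26, 6.23 and 6.73 in wild type. Wild-type array 3 reached the Ahr-KO range, and the difference was 0.26 (95% interval -0.08 to 0.61), or 0.42 without that array (unadjusted p = 0.00905, adjusted p = 0.939). Rsad2 (viperin), which like Ifi27 lies on the same chromosome as Ahr, read 5.79, 5.82 and 5.97 against 5.95, 5.53 and 5.93, with overlap (0.06, -0.22 to 0.34). Of the membrane proteins that block viral entry, Ifitm3 differed by 0.12 (-0.10 to 0.33) and Ifitm2 by 0.01 (-0.30 to 0.31). The genes are paralogs, and whether their probes read each other's transcripts was not tested.

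Interferon-inducible GTPases attack the vacuoles of intracellular microbes. Gbp3, a guanylate-binding protein, read 5.71, 5.51 and 5.31 in Ahr-KO and 4.97, 5.21 and 5.46 in wild type. The difference was 0.30 (95% interval -0.03 to 0.63), and the genotypes overlapped through wild-type array 3. The immunity-related GTPases Igtp and Irgm1 differed by 0.04 (-0.17 to 0.25) and -0.07 (-0.25 to 0.12). Gbp2 shared its probe set with Gbp2b and was not tested. That probe set read 6.18, 6.10 and 6.11 in Ahr-KO and 5.91, 5.79 and 6.12 in wild type, a difference of 0.19 in means with overlap.

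The remaining members differed by between -0.06 and 0.05 and were within their spread. They were Ifi27, a mitochondrial protein (0.05), Ifi35 (-0.05), the apoptosis-associated factor Xaf1 (0.0047) and Cxcl10, the chemokine that draws T cells through CXCR3 (-0.06). Ifi27 varied most among them, from 7.22 to 7.81 within wild type alone. Ifi44, the last gene listed, had no probe set of its own in the platform annotation and was not analysed here.

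Wild-type array 2 held the lowest value of 10 of the 36 members, against 2 to 7 on each other array, and the highest value of 4, Bst2, Isg15, Oasl1 and Ifi27. The score of all members was lowest there, at -0.038, with -0.027 on wild-type array 1 and 0.008 to 0.020 on the others. Role lists differed on that array. The oligoadenylate synthetase and RNA sensing list scored -0.146 there and -0.034 to 0.069 elsewhere. The 7 antiviral effectors scored -0.044 there and -0.045 on Ahr-KO array 1. The other induced proteins and chemokine scored 0.065 there. Among the 10, 3 genes chosen after their values were seen had a wide gap. Oas2 read 4.63 there and 5.04 to 5.19 on the other arrays, Rsad2 5.53 against 5.79 to 5.97 and Ifit1 5.76 against 6.04 to 6.31. Wild-type array 2 and Ahr-KO array 1 are also the arrays on which choroid plexus genes were high, with list scores of 0.63 and 1.22 against -0.52 to -0.41 on the others. With both left out, the differences were -0.11 for Oas2, -0.04 for Rsad2 and 0.03 for Ifit1. On Ahr-KO array 1, Oas2 read 5.15, Rsad2 5.79 and Ifit1 6.21. The part of choroid plexus tissue in the values of these genes was not tested.

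Genes of the pathway outside the list, 107 measured of 119, gave 7 higher (6.54%, against 3.53% of all genes) and 3 lower (2.8%, against 2.65%) in Ahr-KO at unadjusted p under 0.05 and none past the adjusted threshold. Their median difference was 0.05. Ligands and receptors came first in order of action. Of 16 measured, 1 stood lower, Ifnk, interferon kappa (-0.38 ± 0.09, SE; unadjusted p = 0.00260), with no overlap but at a signal between 3.53 and 4.13 on every array. Ifna6 (0.18 ± 0.08) and Ifng, interferon gamma (0.19 ± 0.09), were also dim. Of 12 signalling genes 0 had an unadjusted p under 0.05. The transcription factor Stat3 differed by 0.13 ± 0.07, the kinase Jak2 by -0.11 ± 0.08 and Irf8 by 0.07 ± 0.08. Among 14 nucleic acid sensing genes 0 had an unadjusted p under 0.05, with the adaptors Sting1 at 0.21 ± 0.13 and Mavs at 0.12 ± 0.07 and the kinase Ikbke at -0.11 ± 0.07.

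More of the other interferon-induced genes had a higher than a lower mean in Ahr-KO. At unadjusted p under 0.05, 6 of 38 measured stood higher (15.8%) and 0 stood lower, against 3.53% and 2.65% of all genes, and 30 had a higher mean in Ahr-KO. The median difference was 0.11, against 0.02 for the members. Lgals9, the lectin galectin-9, read 8.96 to 9.03 in Ahr-KO and 8.63 to 8.76 in wild type (0.29 ± 0.07, SE; unadjusted p = 0.00401, adjusted p = 0.769). Lgals3bp, a secreted galectin-binding protein, read 8.78, 8.79 and 8.71 against 8.57, 8.46 and 8.47 (0.26 ± 0.07; unadjusted p = 0.00695, adjusted p = 0.770). Neither gene overlapped between genotypes, and both lay above the array median. Cxcl11, a chemokine of the same receptor as Cxcl10, differed by 0.36 ± 0.12. The other 3 were the GTPase genes Gbp9 and Gbp6 and the synthetase gene Oas3. Cxcl11, Gbp9, Gbp6 and Oas3 averaged 4.54, 6.08, 3.50 and 5.24, each below the array median. Cxcl11 and Gbp9 overlapped between genotypes, and Gbp6 and Oas3 did not. The count of 6 was 3 when Ahr-KO array 1 and wild-type array 2 were left out, where 721 of all genes were higher, against 784 with all arrays. The list was written with earlier results of these data known.

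**Figure D3:**
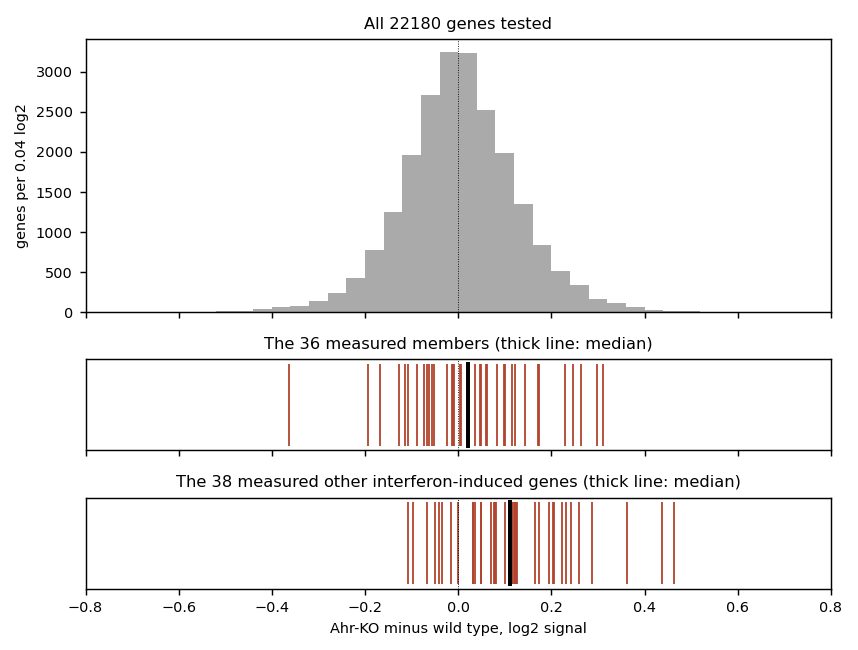
Difference in log2 signal, Ahr-KO minus wild type, for all 22180 genes tested (bars, genes per bin of 0.04 log2, with 3 genes beyond the plotted 0.8), for the 36 measured members and for the 38 other interferon-induced genes (1 line per gene, thick line at the median). The members spread on both sides of 0 with a median of 0.02, and the other interferon-induced genes have a median of 0.11.

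Antigen presentation genes beyond the members were not uniformly placed. In the class I list 0 of 15 stood higher and 1 stood lower at unadjusted p under 0.05. That gene, H2-T24, a nonclassical heavy chain, read 5.50, 5.70 and 5.59 in Ahr-KO and 6.09, 5.80 and 6.12 in wild type, without overlap (-0.41 ± 0.10, SE; unadjusted p = 0.00408, adjusted p = 0.769), the reverse of the direction seen for H2-K1. Nlrc5, the transactivator of class I genes, differed by 0.24 ± 0.13. H2-Ke6, also on that list, lies in the MHC region but encodes a hydroxysteroid dehydrogenase and not an antigen presentation protein, and it differed by -0.17 ± 0.10. In the class II list 1 of 9 was higher, Ciita, the transactivator of class II genes (0.29 ± 0.09, unadjusted p = 0.0143), while H2-Ob (0.19 ± 0.10) and H2-Ab1 (0.14 ± 0.11) were not past that level.

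Exact matches of the promoter letters did not sort the members by direction, and elements that depart from those letters were not examined. Of the 14 members with an ISRE core in a window, 8 had a higher and 6 a lower mean in Ahr-KO, with a median difference of 0.02, and of the 16 without, 9 were higher and 7 lower, with a median of 0.03. The 4 members at unadjusted p under 0.05 were all among those without an exact ISRE core in this window, and none of the 4 had an exact GAS core there. Of the same 4, 3 had an AHR core (H2-K1, Oasl2 and Psmb10) and 1, Irf7, had none. Counted by gene, an AHR core lay in 46.7% of the members with a window and in 41.9% of all such genes. The cores of H2-K1 and Oasl2 lay after the transcription start and that of Psmb10 before it. Members with an AHR core had a median difference of 0.05 (14 genes, 8 higher) and members without it 0.0051 (16 genes, 9 higher).

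**Figure D4:**
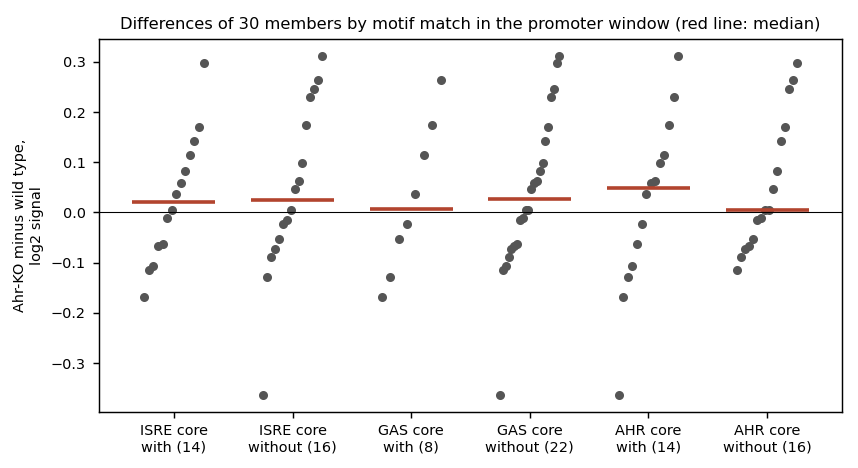
Difference in log2 signal, Ahr-KO minus wild type, of the 30 members with a promoter window, split by whether a window holds an ISRE, GAS or AHR core (points, spread sideways in order of value; red lines, medians). All 6 groups hold genes on both sides of 0, with medians from 0.0051 to 0.05.

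The tissue and the cell types that could carry these genes were measured on the same arrays. All 16 markers listed for hippocampal neurons averaged above the array median. Of these, 1 stood higher in Ahr-KO at unadjusted p under 0.05 (6.25%, against 3.53% of all genes) and 0 lower. It was Prox1 (0.28, limma, unadjusted p = 0.0256, adjusted p = 0.797), with overlap. Ahr, the targeted gene, averaged 6.76 ± 0.15 in Ahr-KO and 7.54 ± 0.12 in wild type (SD, n = 3 each), without overlap. That is 1.72-fold lower (limma, unadjusted p = 4.33e-05, adjusted p = 0.320), so the targeted gene did not pass the adjusted threshold either. In whole tissue, fewer cells of a type and less RNA per cell cannot be told apart. Of 17 microglial markers 0 had an unadjusted p under 0.05, and their summed log2 level ran from 130.3 to 135.8 in Ahr-KO and from 132.1 to 133.9 in wild type. Of 20 endothelial and mural markers 4 stood higher (20%, against 3.53% of all genes) and 0 lower at that level. The 4 were Vwf (0.49), Tagln (0.38), Slco1a4 (0.26) and Abcb1a (0.19). The endothelial markers Pecam1 (0.04), Cdh5 (0.01) and Cldn5 (-0.23) were not among them. Of the 20, 15 had a higher and 5 a lower mean in Ahr-KO, with a median difference of 0.04. The summed level of the 20 ran from 155.0 to 156.8 against 153.6 to 155.1. Of 14 lymphocyte and monocyte markers 0 had such a p and all averaged below the array median, with sums of 65.1 to 67.2 against 64.9 to 65.6. Of 6 border macrophage markers 0 had such a p and 5 had a lower mean in Ahr-KO, and their sums did not overlap, at 32.28 to 32.48 against 32.54 to 33.34. Of 12 astrocyte markers 1 stood higher, Sox9 (0.24, unadjusted p = 0.0147, adjusted p = 0.770), and 1 lower, Fgfr3 (-0.37, unadjusted p = 0.00390, adjusted p = 0.769), with sums of 117.4 to 118.5 against 118.2 to 118.6. No marker is at 0 on a log2 array scale. Endothelial and mural sums were higher in Ahr-KO with a slight overlap, and the part of these cell types in the values of H2-K1, Irf7, Oasl2 and the other interferon-induced genes was not tested.

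**Figure D5:**
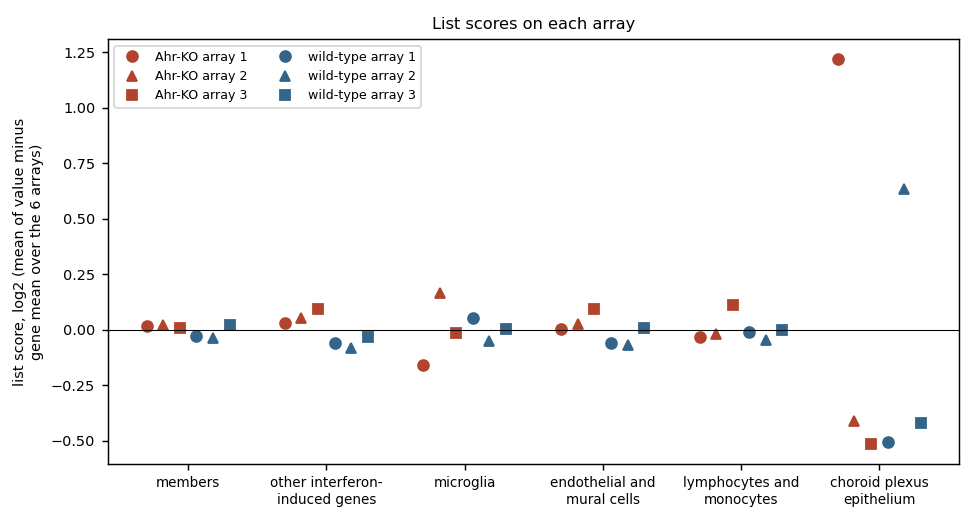
Score of each gene list on each array, averaged over the list after each gene's log2 values were centred on their 6-array mean, with red for Ahr-KO and blue for wild type and a symbol for each mouse. The scores of the members lie between -0.04 and 0.02, those of the other interferon-induced genes are higher on all 3 Ahr-KO arrays, and the choroid plexus scores are 1.22 for Ahr-KO mouse 1 and 0.63 for wild-type mouse 2.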

How the data were processed

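The log2 signals deposited by the authors, 1 per probe set and array, were used. RMA and Affymetrix Expression Console are named per the submitters' processing notes, without versions. RMA normalizes the arrays together, so a shift common to all genes is lost and differences may be understated. The probe set annotation build is not given in the sources used here. Of 41345 rows, 23521 had 1 symbol, 1814 several and 16010 none. Symbols were updated through Entrez IDs with RefSeq GRCm38.p6 (23328 rows matched), and the brightest probe set per gene gave 22180 genes, with no filter on dim signals.

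The main test was limma 3.58.1 under R 4.3.3 (lmFit, eBayes without trend, two-sided, 4 residual degrees of freedom and a prior of 4.33), with Benjamini-Hochberg adjustment over all genes. An exact permutation test of 3 against 3 arrays cannot go below 0.1 and was not used. The test was also run on simulated data, but with changes larger than any member difference here, so that check does not cover differences of the members' size. Members and lists were chosen with earlier results of these data known. Values on every array are given for members at unadjusted p under 0.05, for H2-K1, B2m, Psmb8, Irf9, Stat2, Ifit3, Isg15, Rsad2 and Mx1 whatever their p, and for Irf1, Mx2, Bst2, Isg20 and Gbp3, chosen after their values were seen, as were single values of Tapbp, Oas2, Ifit1 and Ifi27. Each further pathway list is represented by its 3 genes of lowest p, and Gbp9, Gbp6 and Oas3 are named outside that rule. Precision is limited by the number of arrays. Detection calls and scan dates were not used here.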

Additional observations from a re-analysis of the deposited data

How the results depend on the processing

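Over 15 alternatives no member reached adjusted p under 0.05. Each tested 36 members, except the filter at the median level, which tested 12. Over all genes, 2 passed in the fit with an intensity trend, neither of them a member, and no gene passed in any other alternative. With the replicate block (mouse number 1 to 3) the unadjusted counts were 3 higher and 1 lower, as without it. Over all genes they were 654 and 468 with the block and 784 and 587 without it. Deviations from the group means correlated weakly between mice with the same number (r = -0.15, -0.22 and 0.05 across genes). Such deviations cancel within each group of 3 arrays, so these values cannot decide whether the numbers pair the mice. The filter at the median level kept 12 members, of which 1 was higher and 1 lower at unadjusted p under 0.05. Of the 12 members, 8 had a higher mean, and the median difference over them was 0.056. Over all genes that the filter kept, 335 were higher and 450 lower, and the median difference was -0.016. The filter left 2 of the other interferon-induced genes higher, and omitting Ahr-KO array 1 and wild-type array 2 left 3 (alternatives for that list were chosen after seeing the data). Array weights and quantile normalization each gave 2 lower members, with 768 and 548 lower over all genes, against 587 in the main test. Leaving out 1 array gave 1 to 6 higher and 1 to 2 lower members and a median difference of 0.011 to 0.043. Over all genes, leaving out 1 array gave 639 to 824 higher and 470 to 807 lower. The sign held in every alternative for 22 of 36 members. It turned with single arrays left out for Tap2 (-0.096 to 0.044), Tapbp (-0.17 to 0.068), Irf9 (-0.013 to 0.12), Oas2 (-0.083 to 0.20), Ifih1 (-0.13 to 0.070), Trim25 (-0.070 to 0.057), Ifit2 (-0.082 to 0.024), Usp18 (-0.16 to 0.019), Rsad2 (-0.077 to 0.13), Ifitm2 (-0.15 to 0.092), Igtp (-0.031 to 0.096), Ifi27 (-0.086 to 0.21), Ifi35 (-0.12 to 0.011) and Xaf1 (-0.070 to 0.099). It also turned without both choroid plexus arrays for Tap2 (0.054), Tapbp (0.038), Oas2 (-0.11), Rsad2 (-0.042) and Igtp (-0.065), with array weights for Tap2 (0.055), Trim25 (0.010) and Ifitm2 (-0.046), with quantile normalization for Ifitm2 (-0.00083), with the choroid plexus covariate for Ifih1 (0.0070) and with the mean of probe sets for Ifi35 (0.012). The cause was not tested. Members below the array median, 24 of 36, have the least signal over background.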
